A study of Danio rerio with 6 samples.

Results

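The genes described are those of calcium transport across membranes: the voltage-gated calcium channels, the calcium pumps of the plasma membrane and of the endoplasmic reticulum, the sodium/calcium exchangers and the channels that release calcium from internal stores. They were chosen by name, as genes whose symbol starts with cacna, cacnb, cacng, cnga, cngb, atp2a, atp2b, slc8a, slc24a, ryr or itpr followed by a digit. A further condition was that 3 or more of the 6 libraries reach 10 normalized counts, that is read counts divided by a size factor per library. The table of 14781 genes held 43 such names, of which 20 met the minimum, and 9886 genes of the whole table met it. The 20 members are 6 plasma membrane calcium pumps, 3 pumps of the endoplasmic reticulum, 2 sodium/calcium exchangers, 2 sodium/calcium-potassium exchangers and 7 subunits of voltage-gated calcium channels or their relatives. No gene of a cyclic nucleotide-gated channel and no store release channel was among them, so the members are called calcium channel, pump and exchanger genes below.

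In a photoreceptor, calcium enters the outer segment through cyclic nucleotide-gated channels in the dark and is carried out by sodium/calcium-potassium exchangers, and its fall in light drives the recovery and adaptation of the cell. At the other end of the cell, voltage-gated calcium channels sit beneath the synaptic ribbon and set the release of glutamate, and plasma membrane pumps remove the calcium that enters there. Pumps of the endoplasmic reticulum refill the internal store, from which ryanodine and inositol trisphosphate receptors release it.

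RNA was sequenced from red-fluorescent cells sorted from eyes of zebrafish larvae 5 days after fertilization. All larvae used carried thrb:tdTomato, a transgene in which control sequence of the thyroid hormone receptor gene thrb drives a red protein that marks red cones. The WT libraries came from crosses of WT fish with WT fish carrying the reporter, and the other libraries from crosses in which both parents were homozygous for the stl888 allele of samd7 and 1 carried the reporter. There were 3 libraries per genotype, each from its own clutch and pooled from 20 to 25 larvae, so a library is an average over many animals and genotype cannot be told apart from parental line.

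The level of samd7 itself was 7683 ± 896 normalized counts in WT and 24329 ± 543 in the libraries labelled samd7-/- (SD, n = 3, as for all levels below). The labels do not say how the allele affects the transcript, so this value does not check the genotype, and those libraries are called stl888 libraries here, after the allele. Library depth was 13435570 to 18911482 reads for WT and 18418834 to 20369266 reads for the stl888 group. One library, stl888 library 3, stood apart, since its counts differed from those of the other libraries of its group by a chi-square of 166 and 153 per degree of freedom, against 93.3 between those. The red-cone label was met in WT, where 8 red-cone markers, some of them shared by all cones, summed to 3554621 to 3737078 and 4 UV-cone markers to 11630 to 56582. In the stl888 libraries the red-cone sums were lower, at 956434 to 1731817, and the UV-cone sums were higher, at 1407808 to 2162917. Markers of both cones were thus high there, and these sums do not settle whether the label was met. The red opsin gene opn1lw2 fell but still had 500401, 509325 and 1010645 normalized counts in stl888 libraries 1 to 3. The cone arrestin arr3a fell from 492134 ± 121241 to 6695 ± 2174, and arr3b, listed for UV cones, rose from 7253 ± 2943 to 511776 ± 156293. The 4 green-cone markers summed to 27656 to 122632 in WT and were at 0 in each stl888 library, but opn1mw3 and opn1mw4 were at 0 in WT as well. The 2 blue-cone markers summed to 3904 to 11301 in WT and 12781 to 68559 in the stl888 libraries, with neither called. Outside the cones, marker sums were higher without overlap in the stl888 group for horizontal cells (16267 to 19466 against 26160 to 32479), amacrine cells (16162 to 24046 against 24300 to 27563), ganglion cells (1700 to 1876 against 2335 to 2927), Müller glia (56884 to 77642 against 88265 to 160952) and dividing cells (14276 to 17703 against 25965 to 28025). The sums overlapped for rods (20562 to 96126 against 25741 to 75753) and for blood and vessel (464.6 to 867.2 against 429.5 to 1033). Those for cornea, lens and skin did too (2015 to 22714 against 3573 to 7541), as did those for bipolar, pigment and muscle cells, given below. The part of these cell types in the results below was not tested.

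Of the 20 members 1 fell and 0 rose in the stl888 libraries at an adjusted p under 0.05 by limma. The member that fell was slc24a2, a sodium/calcium-potassium exchanger known from cones. Of all genes tested 5.17% were called, 1.26% higher and 3.90% lower, so 1 call among 20 genes is at the background share. Before adjustment 9 members had a p under 0.05, against 19.1% of all genes. The libraries of the genotypes did not overlap for 9 members, 5 higher and 4 lower in the stl888 group. Of all genes 24.5% did not overlap, 12.1% higher and 12.4% lower. These counts are descriptions, because the members were chosen with earlier results of these data known. In addition, slc8a2a met the minimum through the stl888 libraries alone, so its groups could not overlap. Fewer than 2 WT libraries reached the minimum for 3 members, slc8a2a, cacng2a and cacna2d2a, of which cacna2d2a overlapped. By edgeR 2 members were called (slc24a2 and slc8a2a), where 4.36% of all genes were. DESeq2 gave an adjusted p to 9 of the 20 members, not including slc8a2a, slc8a4b and cacng2a, and called 3 of them (slc24a2, atp2b1a and atp2b1b), where it called 15.6% of the 5668 genes with such a value. The limma test called 3 under scaling by library totals (slc24a2, atp2b1a and slc8a2a), where it called 6.75%. The authors' deposited table has 5 members with an adjusted p under 0.05, among 9.09% of the genes that have such a value there. The median log2 difference of the members was 0.20, beside 0.05 for all genes tested.

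**Figure D1:**
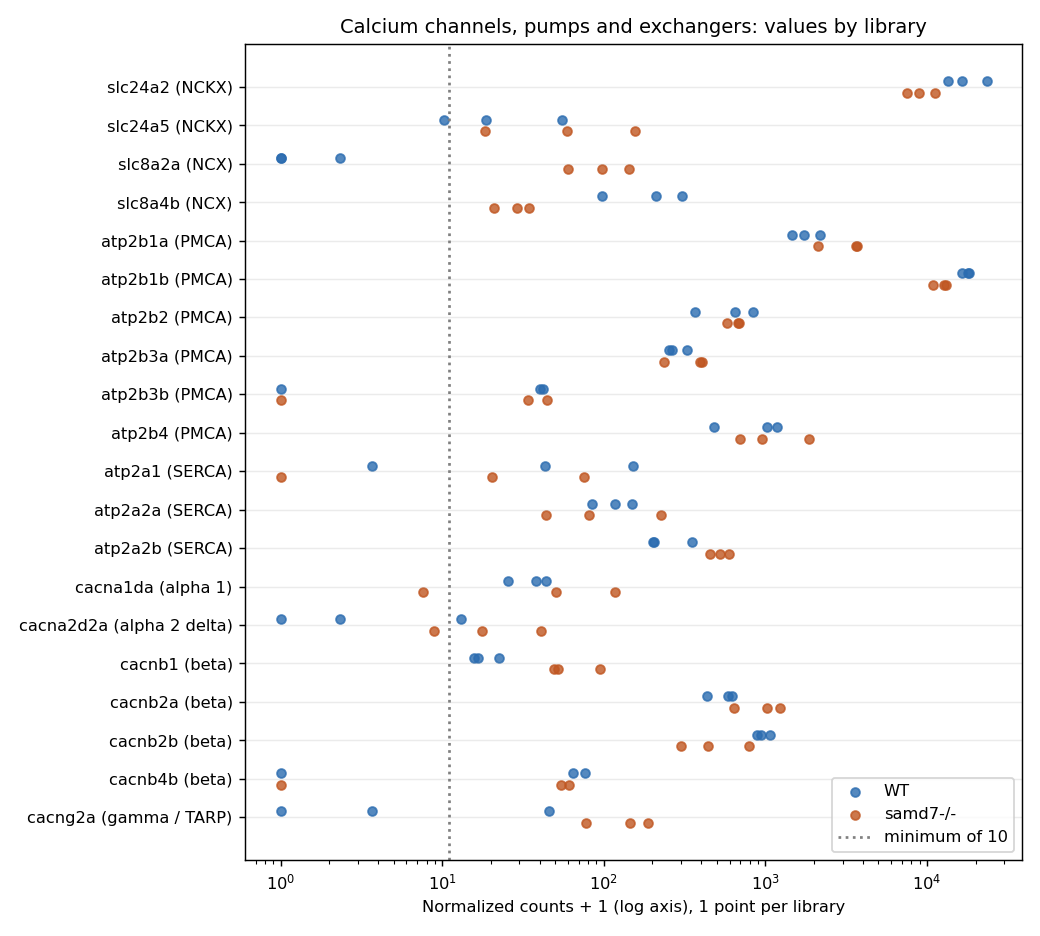
Normalized counts plus 1, on a log axis, of the 20 members in each of the 3 WT (blue) and 3 samd7-/- (orange) libraries, 1 point per library, with the role of each gene in brackets and a dotted line at the minimum of 10. For slc24a2 the 3 WT libraries, from 13559 to 23545, all lie above the samd7-/- libraries, from 7519 to 11238, and for slc8a2a the WT libraries lie at the left edge, at 0 or 1.33.

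The sodium/calcium-potassium exchangers use the gradients of sodium and potassium to carry calcium outward. The level of slc24a2 was 23545, 16561 and 13559 normalized counts in WT libraries 1 to 3 and 11238, 7519 and 8899 in stl888 libraries 1 to 3. Every stl888 library was thus below every WT library. The mean went from 17888 ± 5123 to 9219 ± 1880, a fall of 0.94 on the log2 scale (SE 0.22, 95% interval from -1.40 to -0.48, adjusted p = 0.0214). The authors' deposited table gives slc24a2 a log2 fold change of -0.96 and an adjusted p of 0.000972. Of the 8 red-cone markers 5 fell in the same libraries and 1, the red opsin gene opn1lw1, rose (log2 change 3.29, adjusted p = 0.0459), beside the 3.90% and 1.26% of all genes. The median log2 difference of that list was -0.81. In bulk RNA of sorted cells, fewer cells of a type and less RNA per cell cannot be told apart. The call of slc24a2 was lost without WT library 1 (log2 difference -0.72, adjusted p = 0.109), WT library 2 (-0.97, 0.0738) or stl888 library 2 (-0.80, 0.0641). It held without stl888 library 3 (adjusted p = 0.0411) and under scaling by library totals (log2 change -0.71, adjusted p = 0.0483), which moves the median of all genes up by 0.23.

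The other exchanger of this kind, slc24a5, is the gene of the zebrafish golden mutant and acts in the melanosomes of pigment cells. It had 54.1, 17.6 and 9.32 normalized counts in WT and 154, 58.3 and 17.4 in the stl888 libraries. The groups overlapped and the values spread widely within each (log2 difference 1.34, 95% interval from -1.49 to 4.17, adjusted p = 0.642). Markers of pigment cells and pigment epithelium summed to 157 to 474 normalized counts in WT and 186 to 462 in the stl888 libraries, with 5 of 10 tested and none called.

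The sodium/calcium exchangers, which move calcium without potassium, differed in opposite directions, and neither passed limma's test over all genes. The exchanger slc8a2a, whose mammalian relative acts in brain neurons, had 0, 0 and 1.33 normalized counts in WT libraries 1 to 3, which is 1 read in all. In stl888 libraries 1 to 3 it had 96.6, 142 and 59.3 normalized counts, from 117, 190 and 68 reads. The gene was therefore nearly without reads in WT and had reads in each stl888 library. The ratio of the pooled reads was 265, with an exact 95% interval from 47.2 to 10478. That interval takes all reads as independent and leaves out the spread between libraries, so it describes the reads and does not test the genotypes. On the log2 scale the difference was 6.15 (SE 1.74, 95% interval from 2.41 to 9.90, adjusted p = 0.0598), and the group that made slc8a2a pass the minimum is the group in which it is high. It was called by edgeR (log2 change 7.56, adjusted p = 0.0467), with library totals (6.29, 0.0454) and with a pseudocount of 5 (4.19, 0.0326), and the authors' deposited table gives a log2 fold change of 7.90 and an adjusted p of 5.18e-05. By limma slc8a2a was not called without a filter (adjusted p = 0.0522), with a pseudocount of 0.5 (0.0777) or with replicate number in the fit (0.0875). With a minimum of 50 its adjusted p was 0.280. With 1 library left out the adjusted p of slc8a2a by limma ranged from 0.0750 to 0.237.

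The exchanger slc8a4b belongs, by its name, to a branch of this family known from fish. The RefSeq gene table lists slc8a1b as its synonym, while the deposited table also has a separate gene slc8a1b with at most 24.05 normalized counts, so which gene the values belong to depends on the annotation. It had 96.2, 305 and 209 normalized counts in WT and 19.8, 33.6 and 27.9 in the stl888 libraries, so that the lowest WT library was above the highest stl888 one. Its mean was 203 ± 105 in WT and 27.1 ± 6.93 in the other group, a log2 difference of -2.74 (SE 0.85, 95% interval from -4.56 to -0.92, adjusted p = 0.0850). The gene did not pass by edgeR either (adjusted p = 0.0631), and the authors' deposited table gives slc8a4b a log2 fold change of -2.91 and an adjusted p of 0.00178. With 1 library left out the log2 difference of slc8a4b ranged from -3.20 to -2.38.

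The plasma membrane calcium pumps use ATP to export calcium, and in photoreceptors they clear it from the inner segment and synaptic terminal. All 6 listed pump genes met the minimum, and none was called by limma. The pump atp2b1b had 18266, 17871 and 16506 normalized counts in WT and 10891, 12685 and 13059 in the stl888 libraries. Its groups did not overlap and its libraries were close within each group (17548 ± 923 and 12211 ± 1159). The log2 difference of atp2b1b was -0.53 (SE 0.16, 95% interval from -0.86 to -0.19, adjusted p = 0.0723). It passed by DESeq2 (log2 change -0.52, adjusted p = 0.00440) and without stl888 library 3 (-0.58, 0.0287). Without any other single library it did not pass by limma (adjusted p from 0.0781 to 0.282), nor with replicate number in the fit (0.151). Under library totals the difference was -0.29 (adjusted p = 0.233).

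The paralog atp2b1a differed in the opposite direction. It had 2163, 1727 and 1450 normalized counts in WT and 3700, 3608 and 2106 in the stl888 libraries. The stl888 library 3 lay just below the highest WT library, and the other stl888 libraries were above all WT libraries. The log2 difference of atp2b1a was 0.79 (SE 0.25, 95% interval from 0.26 to 1.33, adjusted p = 0.0904). The gene passed without stl888 library 3 (log2 change 1.06, adjusted p = 0.0108), under library totals (1.02, 0.0443) and by DESeq2 (0.82, 0.0227). Without any other single library atp2b1a did not pass by limma (adjusted p from 0.0994 to 0.287). By edgeR the adjusted p was 0.0993 for atp2b1a and 0.0930 for atp2b1b, and the authors' deposited table gives 0.0358 and 0.00564.

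For the other pump genes the groups overlapped. The pump atp2b2, which hair cells need for hearing in mammals, had 643, 367 and 841 normalized counts in WT and 671, 579 and 684 in the stl888 libraries (log2 difference 0.14, 95% interval from -0.59 to 0.87). The pump atp2b4 had 1182, 482 and 1026 in WT and 952, 1859 and 692 in the other group (0.35, interval from -0.49 to 1.202). The stl888 library 2 held the highest value of atp2b4, and the rest of its group lay within the WT range. For atp2b3a the range was 253 to 326 in WT and 235 to 403 in the stl888 libraries (log2 difference 0.26, interval from -0.60 to 1.12). In each genotype 1 library had no read of atp2b3b, and the others had between 32.9 and 43.8 normalized counts, so its interval was wide (from -4.71 to 4.60). Among these pumps a change of more than 2-fold lay outside the interval for atp2b2 alone, since that interval stayed within 1 on the log2 scale.

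**Figure D2:**
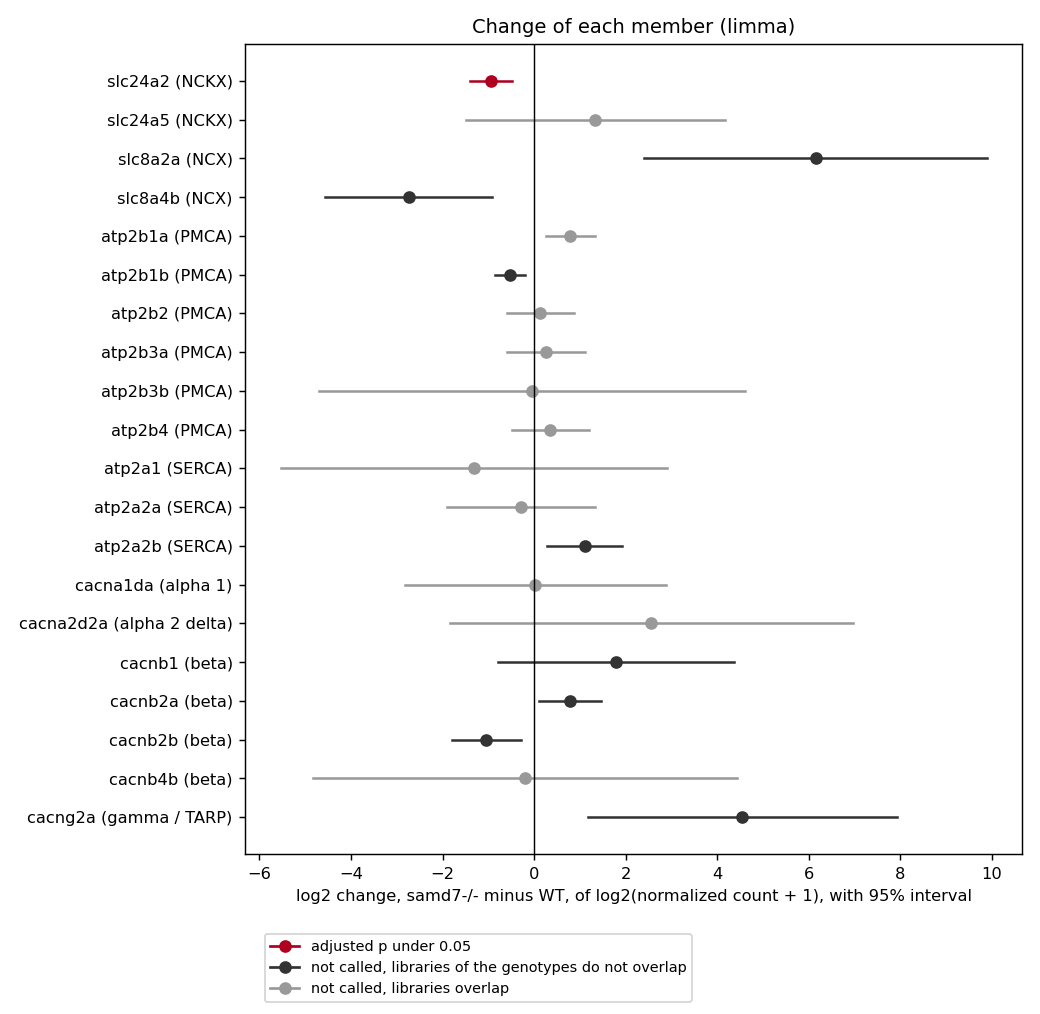
Log2 difference, samd7-/- minus WT, of log2(normalized count + 1) for the 20 members by limma, with 95% intervals. The 1 member with an adjusted p under 0.05 (slc24a2, -0.94) is in red, members with no overlap between the genotypes are in black and the others are in grey. The widest intervals belong to genes with few reads, such as atp2b3b and cacnb4b.

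The pumps of the endoplasmic reticulum carry calcium back into the store. The level of atp2a2b, a copy of the widely used form, was 200, 349 and 202 normalized counts in WT and 454, 522 and 595 in the stl888 libraries. Each stl888 library was above each WT library, and the means were 250 ± 85.5 and 524 ± 70.3. The log2 difference of 1.104 (SE 0.38, 95% interval from 0.29 to 1.92) did not pass over all genes (adjusted p = 0.124), nor in any alternative tried (adjusted p from 0.0563 to 0.256). Its paralog atp2a2a had 117, 82.9 and 148 normalized counts in WT and 80.1, 225 and 42.7 in the other group, with overlap (log2 difference -0.29, interval from -1.91 to 1.32). By edgeR the value for atp2a2a was 0.00.

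The remaining pump of this kind, atp2a1, is the form of fast skeletal muscle. It had 150.3, 41.9 and 2.66 normalized counts in WT libraries 1 to 3 and 74.3, 19.4 and 0 in stl888 libraries 1 to 3. Values of both groups spanned more than 10-fold and overlapped (log2 difference -1.32, 95% interval from -5.54 to 2.90). The summed level of 18 skeletal muscle markers was 75.9 to 184 normalized counts in WT and 6.98 to 91.1 in the other group. No read was found in any library for 7 of them, including the myosin genes myhz1.1 and myhz1.2 and the troponin gene tnnc2.

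The voltage-gated channel is built on a pore-forming alpha 1 subunit, with a beta subunit inside the cell that brings the pore to the membrane and an alpha 2 delta subunit outside it. Of the 5 alpha 1 genes in the table only cacna1da, an L-type pore known from hair cells and neurons, met the minimum. It had 37.3, 24.4 and 42.6 normalized counts in WT and 6.61, 49.3 and 117 in the stl888 libraries. The stl888 values lay on both sides of the WT values, and the log2 difference was 0.03 (95% interval from -2.82 to 2.88). The pore genes cacna1fa and cacna1fb, whose mammalian relative is the main channel of photoreceptor terminals, were not in the table under these names. Nothing is known here of their levels. The alpha 2 delta gene cacna2d2a had 12.0, 0 and 1.33 normalized counts in WT and 16.5, 39.6 and 7.85 in the other group (log2 difference 2.56, interval from -1.84 to 6.97). It is the member nearest the minimum from above, with a third-highest value of 12.0, and the exchanger gene slc8a2b was nearest from below, with 9.91.

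The beta subunit genes cacnb2a and cacnb2b, copies of the form that mouse photoreceptors need at the ribbon, differed in opposite directions without passing the test. The level of cacnb2a was 617, 582 and 437 normalized counts in WT and 1224, 1026 and 635 in the stl888 libraries. The WT libraries had 891, 1073 and 934 normalized counts of cacnb2b, and the stl888 libraries 297, 787 and 438. Neither gene overlapped between the genotypes, although stl888 library 3 of cacnb2a was close to WT library 1. The log2 difference was 0.78 for cacnb2a (SE 0.32, 95% interval from 0.10 to 1.46, adjusted p = 0.188). It was -1.04 for cacnb2b (SE 0.35, interval from -1.79 to -0.29, adjusted p = 0.115). Only the setting without stl888 library 2 called 1 of the pair, cacnb2b (-1.41, adjusted p = 0.0386). The RefSeq gene table lists each of these symbols as a synonym of the other, so which copy the table's a and b name depends on the annotation, which is not given in the sources used here.

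Of the other beta genes, cacnb1, the form of skeletal muscle that neurons also use, had 15.6, 21.5 and 14.6 normalized counts in WT and 51.2, 47.8 and 93.3 in the stl888 libraries. The groups did not overlap, but the interval of the log2 difference included 0 (1.79, from -0.80 to 4.37, adjusted p = 0.469). The gene cacnb4b had 63.7, 0 and 75.9 in WT and 0, 53.0 and 60.2 in the other group (log2 difference -0.20, interval from -4.84 to 4.44). Its relative cacnb4a was below the minimum, with 0 in each WT library and 16.5, 2.24 and 100.3 in the stl888 ones. The authors' deposited table gives cacnb4a an adjusted p of 0.0241.

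The gene cacng2a encodes stargazin, which is named after calcium channel gamma subunits and is known as an auxiliary subunit of AMPA-type glutamate receptors. It had 44.5, 0 and 2.66 normalized counts in WT and 187, 145 and 76.7 in the stl888 libraries. The lowest stl888 library was above the highest WT library, and WT library 1 alone of its group reached the minimum. The log2 difference was 4.55 (SE 1.57, 95% interval from 1.17 to 7.93, adjusted p = 0.125), and edgeR gave 3.12 (adjusted p = 0.335). Without WT library 1 it was 6.07 (adjusted p = 0.0666). AMPA receptors are typical of neurons downstream of photoreceptors. Of the markers of such neurons, 4 of 11 tested for horizontal cells (onecut1, cx52.9, tfap2b and rem1) and 3 of 10 for amacrine cells (tfap2b again, pax6a and pax6b) rose, beside 1.26% of all genes. None of 11 bipolar cell markers or of 9 ganglion cell markers was called. The bipolar sums overlapped, at 6547 to 8403 in WT and 5007 to 7479 in the stl888 libraries, but a sum follows its most abundant genes. The median log2 difference of the tested markers was 1.18 for bipolar, 0.71 for horizontal, 0.83 for amacrine and 0.61 for ganglion cells. Over all genes tested it was 0.05. The part of these neurons in the values of cacng2a was not tested.

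Zebrafish keep pairs of copies of many of these genes, and the share of a copy within its pair does not depend on how libraries are scaled. Both copies were members in 4 pairs. The share of cacnb2a in the sum of cacnb2a and cacnb2b was 40.9%, 35.2% and 31.8% in WT libraries 1 to 3 and 80.5%, 56.6% and 59.2% in stl888 libraries 1 to 3. All stl888 shares were above all WT shares, with means of 36.0% ± 4.59 and 65.4% ± 13.1. For atp2b1a in the sum of atp2b1a and atp2b1b the shares were 10.6%, 8.81% and 8.07% in WT and 25.4%, 22.2% and 13.9% in the other group, again without overlap (9.16% ± 1.29 and 20.5% ± 5.92). For each of these pairs a two-sided exact permutation test gave p = 0.1 (adjusted over 4 pairs 0.2), and 3 libraries against 3 can give no smaller p. The share of atp2a2a in its pair with atp2a2b was 32.8% ± 12.1 in WT and 17.3% ± 11.9 in the stl888 libraries, with overlap (exact permutation p = 0.2). That of atp2b3a with atp2b3b was 91.0% ± 7.81 and 94.2% ± 5.17 (exact permutation p = 0.6). How often shares fail to overlap in other pairs of genes was not counted, so no background share can be set beside these. The shares are made from the same values as the differences of the single genes above. The split between copies is uncertain, since the sources used here do not say how reads that match both were assigned.

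**Figure D3:**
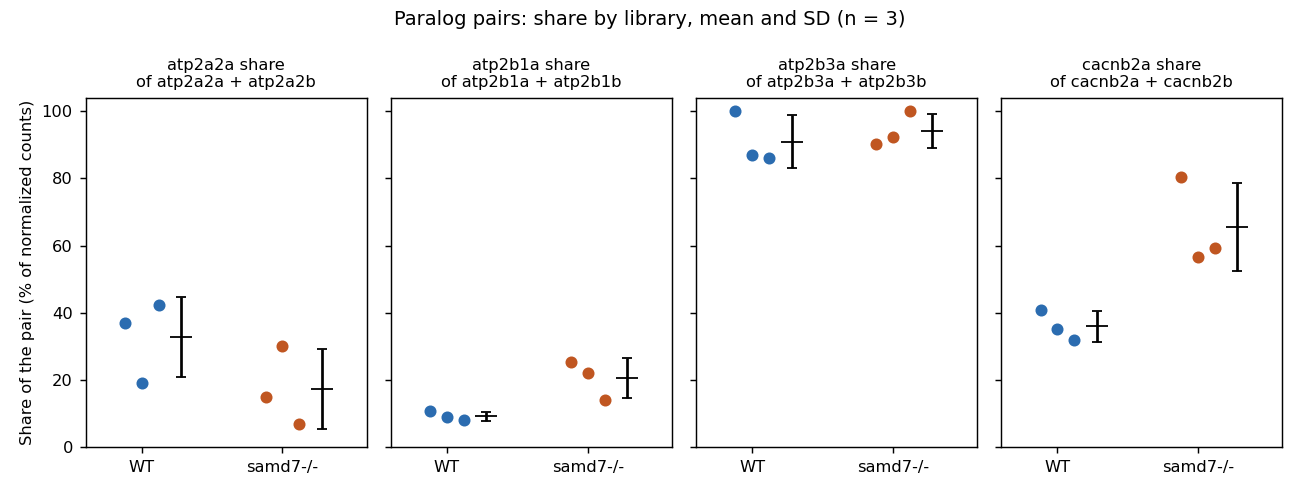
Share of the first copy in the summed normalized counts of 4 pairs of paralogs, in percent, for each of the 3 WT (blue) and 3 samd7-/- (orange) libraries, with the mean and SD of each group beside the points. The shares of cacnb2a and atp2b1a do not overlap between the genotypes, while those of atp2a2a and atp2b3a do.

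The 23 listed genes below the minimum are the rest of the 43 names, which are not the whole family. Of these 6 were at 0 in all 6 libraries: the cyclic nucleotide-gated channel gene cnga5, the ryanodine receptor gene ryr1b, the exchanger gene slc8a1a and the gamma genes cacng1a, cacng2b and cacng7a. A count of 0 allows up to 3 counts, which is 2.24 to 3.99 normalized counts depending on the library, and this covers counting error only. The inositol trisphosphate receptor gene itpr3 had 7.22 in WT library 1 and 0.826 in stl888 library 1 and was at 0 elsewhere. The muscle pore genes cacna1sa and cacna1sb reached 22.3 and 5.23 at most. The exchanger gene slc24a4a, whose mammalian relative acts in olfactory neurons and cones, was at 0 in each WT library and had 9.08, 3.74 and 0.872 in the stl888 libraries. Cyclic nucleotide-gated channel subunits of cones and rods, such as cnga3a, and the rod exchanger slc24a1 were not among these names, so nothing is known here of their levels.

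Genes that sense, buffer or route calcium beside these transporters were read from 6 lists. Of 42 tested genes in these lists 6 fell and 0 rose by limma as reported, and 3.90% of all genes were called lower. Which genes were called depended on the setting, since library totals gave 2 higher (calm2a and vdac1) and 4 lower. Both calm2a and vdac1 already had log2 differences above 0 by limma as reported (0.69 and 0.31), without passing. The 16 sensors and buffers had 3 that fell, and the list's median log2 difference was 0.53, so most members lay on the other side. Of these, neurocalcin ncaldb had 45174 ± 8126 normalized counts in WT and 20685 ± 4133 in the other group, a log2 change of -1.13 with an SE of 0.19 (adjusted p = 0.00290). The calmodulin genes calm1b (log2 change -1.69, SE 0.22, adjusted p = 0.000565) and calm3a (-0.98, SE 0.21, adjusted p = 0.0145) fell as well, while calm1a, calm2a, calm2b and calm3b had differences of -0.33, 0.69, 0.51 and 0.21 that did not pass. Calmodulin is the general calcium sensor that also switches on the plasma membrane pumps.

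Neuroplastin, which in mammals is a subunit of the plasma membrane calcium pumps, is encoded by nptna and nptnb. The level of nptnb was 8403, 11761 and 9616 normalized counts in WT and 4049, 3885 and 5114 in the stl888 libraries, without overlap. It fell by 1.19 on the log2 scale (SE 0.19, adjusted p = 0.00206), and it was the 1 gene of 4 tested regulators of the pumps to be called. The difference of nptna was -0.55 (adjusted p = 0.203). Among 6 tested genes of store refilling and leak, tmem38b, which encodes an intracellular potassium channel that balances charge during calcium release, fell from 1621 ± 360 to 717 ± 165 (-1.18, adjusted p = 0.0203).

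Among 6 tested genes listed as partners of the calcium channel at the ribbon synapse 1 fell, and the median log2 difference was -0.77. The list includes cast (log2 difference 0.61, not called). That symbol names calpastatin, which is not such a partner, so the count and the median carry this limit. The gene that fell was lrit3a, which in mice organises the cone synapse. It had 6454, 8976 and 6415 normalized counts in WT and 2166, 3216 and 5611 in the stl888 libraries (log2 change -1.08, adjusted p = 0.0476). The stl888 library 3 was closest to the WT libraries, and without it the log2 change of lrit3a was -1.45 (adjusted p = 0.00114). The ribbon gene ctbp2l had a difference of -0.91 (adjusted p = 0.0558). None of 6 mitochondrial genes (median 0.03) or of 4 tested TRP and related channels (median -0.28) was called. Of these channels trpm1b, also listed for bipolar cells, had a log2 difference of 2.69 (adjusted p = 0.187 by limma). The differences of trpc1, trpm7 and mcoln1a were -0.22, -0.33 and -0.55. In all settings tried ncaldb, calm1b and nptnb were called, whereas the call was lost in 9 of 14 settings for lrit3a, 4 for tmem38b and 1 for calm3a. The largest adjusted p was 0.191 for lrit3a and 0.120 for tmem38b, both without WT library 2, and 0.0808 for calm3a without WT library 1.

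**Figure D4:**
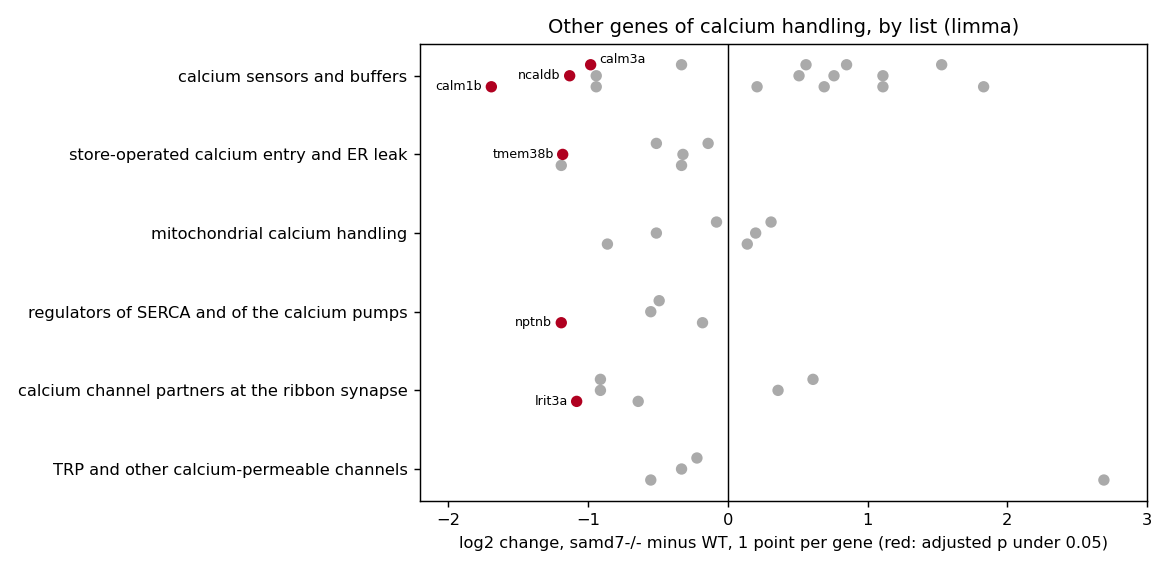
Log2 difference, samd7-/- minus WT, of the tested genes of 6 lists of calcium sensors, store and mitochondrial proteins, pump regulators, channel partners and other channels, 1 point per gene, with genes at an adjusted p under 0.05 in red and named. All 6 named genes lie left of 0, and the sensors and buffers spread to both sides.

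For the 9 members with a p under 0.05 before adjustment, the adjusted p moved across 0.05 with the setting in 5. These were slc24a2, called in 11 of 14 settings, atp2b1a, called in 3, atp2b1b, called in 2, and cacnb2b, called in 1. The other was slc8a2a, called in 3 of the 13 settings that gave it an adjusted p. Without stl888 library 3 the called members were slc24a2, atp2b1a and atp2b1b. The genes atp2a2b and cacnb2a were called in none of 14 settings, and slc8a4b and cacng2a in none of the 13 that gave them an adjusted p, DESeq2 being the exception. Each kept its direction in those settings.

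**Figure D5:**
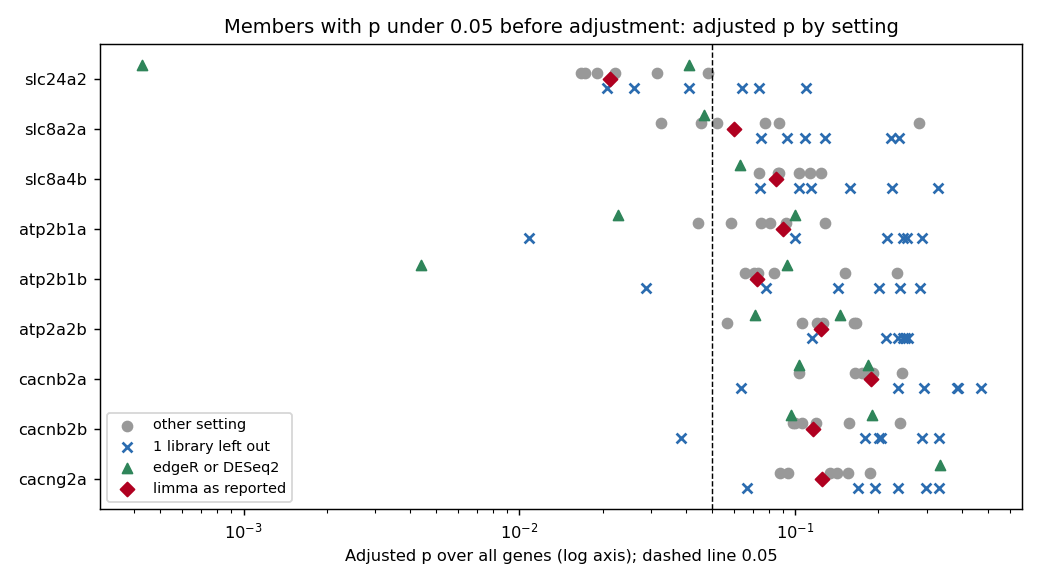
Adjusted p over all genes, on a log axis, of the 9 members with p under 0.05 before adjustment, for the reported limma fit (red), fits with 1 library left out (blue crosses), edgeR or, where it gave a value, DESeq2 on recovered reads (green) and other settings (grey), with a dashed line at 0.05. The reported value of slc24a2 (0.0214) lies left of the line and the other 8 lie right of it.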

How the data were processed

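The authors deposited 1 table. It gives a signal for each gene in each library and genotype means. Per the file headers it also holds the authors' log2 fold changes and their adjusted p-values, quoted only as theirs. The submitters' processing notes name danRer10 as the build and the tools R 4.1.3, DESeq2 1.34.0, HTSeq 0.9.1, STAR 2.7.2b and Trim Galore 0.6.1. Annotation and strand setting are not stated in these sources. The deposited signal is a read count divided by 1 size factor per library. Dividing by the smallest nonzero value of a library gave whole numbers, to within 0.01, for 100% of the nonzero values, so whole reads were recovered. Per the labels' protocols, each library used 300 pg of RNA, 14 and 15 cycles of amplification and no stated molecular identifiers, so intervals on counts cover counting error only.

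Normalized counts were transformed as log2(value + 1), which understates the change of low genes, and tested with limma 3.58.1 in R 4.3.3 (trend, robust, genotype only). Benjamini-Hochberg adjustment ran over all 9886 genes with at least 10 in at least 3 libraries, and 511 were called at 0.05. Recovered reads were tested with edgeR 4.0.16 (TMM, quasi-likelihood) and DESeq2 1.42.0 as alternatives. On simulated data all fits were held to recovery and direction of known changes. These changes were larger than most differences of the members and were placed only in genes with a mean of at least 100. Of the 20 members 10 reached that mean in both groups. The check therefore does not cover small changes or genes with few reads. False calls were counted for each fit, but only limma and edgeR were held to a limit on them. The DESeq2 calls therefore carry no such limit, and its count of false calls is not given here. DESeq2 gave no adjusted p to 11 of the 20 members. Other alternatives were library totals, pseudocounts of 0.5 and 5, no filter or a minimum of 50, a replicate block, and leaving out each library. Values are not per length, so levels of different members were not compared, and the share of a copy within its pair was compared between libraries only. The sums of red-cone and UV-cone markers, from lists of unequal size, carry the same limit when set beside each other. All 20 symbols matched RefSeq symbols (GRCz12tu), used for names only.

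Members and lists were chosen with earlier results of these data known. Named members were those called, the 3 highest per role, known photoreceptor genes, those without overlap and a log2 difference of at least 1, and those nearest the minimum. The remaining members, atp2b3a and atp2b3b, were named to complete the account. Among the lists, called genes were named, and paralogs and close relatives of these were added after their values were seen.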

Additional observations from a re-analysis of the deposited data

How the results depend on the processing

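The number of members called was 1, and it was 3 with library totals, 2 with edgeR, 3 with DESeq2, 2 with a pseudocount of 5 and 0 to 3 with 1 library left out. Over all genes 511 were called, against 883 with DESeq2 and 225 to 573 with 1 library left out. Library totals gave 415 higher and 252 lower in place of 125 and 386. For the related lists 6 were called, all lower, against 3 to 8 with 1 library left out. Library totals gave 2 higher and 4 lower there, and DESeq2 gave 1 higher (calm2a) and 8 lower. Of 264 alternative values of the members' log2 differences 248 kept their direction. The 16 that did not belong to 7 members that were not called. Among these were atp2a2a with edgeR (0.00) and atp2b3b with library totals (0.15). With 1 library left out the log2 difference ranged from -2.80 to 0.45 for atp2a1, from -0.93 to 0.25 for atp2a2a, from -0.19 to 0.40 for atp2b2, from -1.84 to 1.71 for atp2b3b, from -0.04 to 0.67 for atp2b4, from -0.83 to 1.14 for cacna1da and from -2.24 to 1.75 for cacnb4b. The cause of these shifts was not tested. The difference in share kept its sign in all 4 pairs of paralogs, both as a log2 ratio and with 1 library left out.

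Libraries of the 2 genotypes carry the same replicate numbers. Deviations from the genotype mean correlated across genes at 0.046, -0.034 and 0.012 for numbers 1 to 3, and not every library correlated best with its own number. These values show no pairing by number, but they cannot exclude one. With the replicate block 431 genes and 1 member, slc24a2 (adjusted p = 0.0167), were called. Genes with few reads, such as cacna2d2a, atp2b3b and cacnb4b, have intervals too wide to show a 2-fold change.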
